A study of Ovis aries with 16 samples.

Results

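The regions described here are methylated DNA regions on sheep chromosomes 11, 14 and 24, called in longissimus dorsi (LD) muscle of 16 fetuses. The peaks of all fetuses were pooled and joined into regions wherever they overlapped by 1 bp or more, and a region counted as a consensus region when 2 or more fetuses contributed a peak. Those lying more than 2 Mb from the first base and from the largest peak end of the chromosome were retained, so that the chromosome ends did not enter. This gave 34176 regions, with 13300 on chromosome 11, 12940 on chromosome 14 and 7936 on chromosome 24, out of 512238 consensus regions in the genome. A further 2979 consensus regions on the same chromosomes lay too near an end and were left out. The retained interiors span 155.0 Mb, and the interiors of the 23 other autosomes, used for comparison, span 2193 Mb with 434518 regions.

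Methyl-binding domain (MBD) sequencing was carried out on whole LD muscle, the long muscle of the back, from 8 fetuses of hay-fed and 8 fetuses of corn-fed Polypay ewes. The ewes received the hay diet, based on alfalfa haylage, or the corn diet, which had some haylage added, from mid-gestation until necropsy, at equivalent metabolizable energy. Fetuses carry the numbers 1 to 16 across both diets, and each has its own peak list with 261331 to 519923 peaks. Dam, sex and sequencing lane are not tied to these numbers in the sources used here. In the study's list of fetuses and dams, every hay fetus and most corn fetuses had a twin from the same dam in the set. The 8 fetuses of a diet thus came from fewer ewes, yet the tests treat each fetus as separate because twins could not be matched. P-values therefore measure the spread between these samples and not between ewes. In whole muscle a change in methylation and a change in the mix of cell types cannot be told apart.

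In MBD sequencing, sheared DNA is captured by a protein domain that binds methylated CpG sites, so a peak marks a stretch in which methylated CpGs are packed closely enough to be pulled down. Most CpG sites of mammalian somatic tissue are methylated, while CpG islands at active promoters usually are not, and stretches that are rich in both genes and CpG therefore offer many methylated sites in gene bodies beside islands that stay unmethylated. The small chromosomes of ruminants include several that are rich in genes and in G and C bases. The chromosomes were labelled gene-dense when they were chosen. Gene density, CpG content and the genes at each region were not analysed here, since no annotation or sequence of the Oar_v3.1 build was used. All positions below are in Oar_v3.1 as the peak lists give them.

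Consensus regions were more densely packed on chromosomes 11, 14 and 24 than on the other autosomes. There were 220.5 regions per Mb against 198.1, and the regions covered 22.04% of the interior bases against 17.28%. The 3 chromosomes thus held 7.292% of the interior autosomal regions on 6.601% of the interior autosomal bases. The median gap from one region to the next was 1515 bp, against 1997 bp elsewhere. Median region width was nearly the same, at 770 bp against 759 bp, but the upper tail was longer, with a 90th percentile of 1945 bp against 1570 bp.

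The chromosomes were not alike. Among the 26 autosomes, chromosome 11 ranked 1 for regions per Mb (228.3), chromosome 14 ranked 3 (220.4) and chromosome 24 ranked 8 (208.7). The other autosomes ranged from 185.4 on chromosome 16 to 220.7 on chromosome 26, with a median of 199.4. By bases covered, chromosome 14 ranked 1 (22.60%), chromosome 11 ranked 2 (22.56%) and chromosome 24 ranked 4 (20.36%), with chromosome 26 (20.63%) between them. Chromosomes 13 and 20, which were not among the 3, also had more regions per Mb than chromosome 24, at 219.0 and 214.7. Chromosome 24 had the narrowest median region of all autosomes, 737 bp, whereas chromosomes 14 and 11 had the widest, 779 and 778 bp. It also had the largest share of merged regions seen in a single fetus, 30.63%, where the other autosomes outside the 3 ranged from 26.89% to 29.43%.

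**Figure D1:**
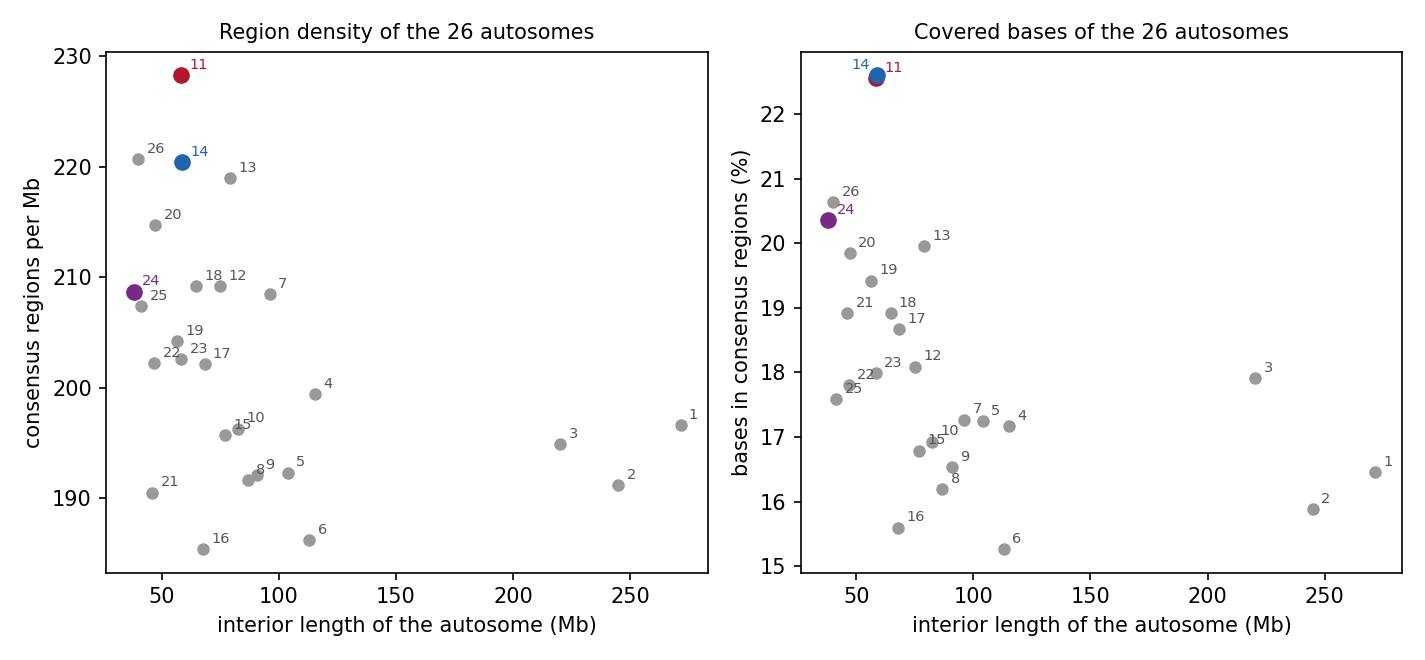
Consensus regions per Mb (left) and the percent of interior bases in consensus regions (right) are plotted against the interior length in Mb for each of the 26 autosomes, with chromosomes 11, 14 and 24 in colour. Each point is 1 chromosome with 2 Mb left out at each end, and the vertical axes do not start at 0. Chromosomes 11 and 14 lie at or near the top, at 228.3 and 220.4 regions per Mb and 22.56% and 22.60% of bases covered, and chromosome 24 lies beside chromosome 26 in the right panel.

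Broad regions were more frequent on all 3 chromosomes than on most others. Regions of at least 5 kb numbered 395, or 254.8 per 100 Mb, against 2984, or 136.1 per 100 Mb, on the other autosomes. All 395 had a peak in all 16 fetuses, as did 2982 of the 2984 on the other autosomes. Joining can only widen a region as more fetuses add peaks, so this sharing is partly set by the rule and is not a separate result. By chromosome there were 132 on chromosome 11 (226.6 per 100 Mb), 160 on chromosome 14 (272.5) and 103 on chromosome 24 (270.8). The other autosomes ranged from 65.28 per 100 Mb on chromosome 25 to 275.7 on chromosome 21, so that the value of chromosome 21 lay above all 3.

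The widest region of each chromosome shows what such a stretch looks like. On chromosome 24 it ran from 37170374 to 37210872, a length of 40499 bp, and was built from 333 peaks, with every fetus contributing at least 10 and at most 35. On chromosome 14 it ran from 52898874 to 52917333 (18460 bp, 182 peaks), and on chromosome 11 from 13013741 to 13031427 (17687 bp, 135 peaks). These wide regions are chains of neighbouring peaks that overlap between fetuses, and the widest single peak of any fetus in the chromosome 11 region was 9782 bp. Each had a peak in all 16 fetuses.

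Regions were spread unevenly along the chromosomes. In windows of 1 Mb, 154 windows of the 3 chromosomes held from 34 to 386 regions with a median of 223.5, against a median of 187 in 2183 windows of the other autosomes. The difference lay more in the shortage of sparse windows than in a surplus of the densest. Windows with fewer than 150 regions made up 18.83% against 29.45%, and windows with more than 300 made up 14.94% against 11.22%. Of the 20 windows with most regions among all 2337, 3 were on these chromosomes, which held 6.590% of all windows.

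The last part of each chromosome was dense. When each interior was divided into a first, a middle and a last stretch of about equal length, the median counts per window were 210, 211 and 272 on chromosome 11. They were 240.5, 180 and 255 on chromosome 14 and 240, 154 and 277 on chromosome 24, so that the middle of these latter chromosomes was the sparsest. The window with most regions on chromosome 11 was 58000001 to 59000000, with 386 regions covering 44.89% of its bases, and the one with fewest was 2000001 to 3000000, with 34 covering 1.712%. On chromosome 14 the corresponding windows were 11000001 to 12000000 (381 regions, 53.89% covered) and 27000001 to 28000000 (58 regions, 2.903%). On chromosome 24 the highest count, 312 regions, was shared by 37000001 to 38000000 (50.07% covered), which contains the 40499 bp region, and 39000001 to 40000000 (63.77% covered), and the lowest was at 18000001 to 19000000 (49 regions, 2.472%). Within 1 chromosome the covered share thus differed by more between windows than it did between any 2 autosomes.

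**Figure D2:**
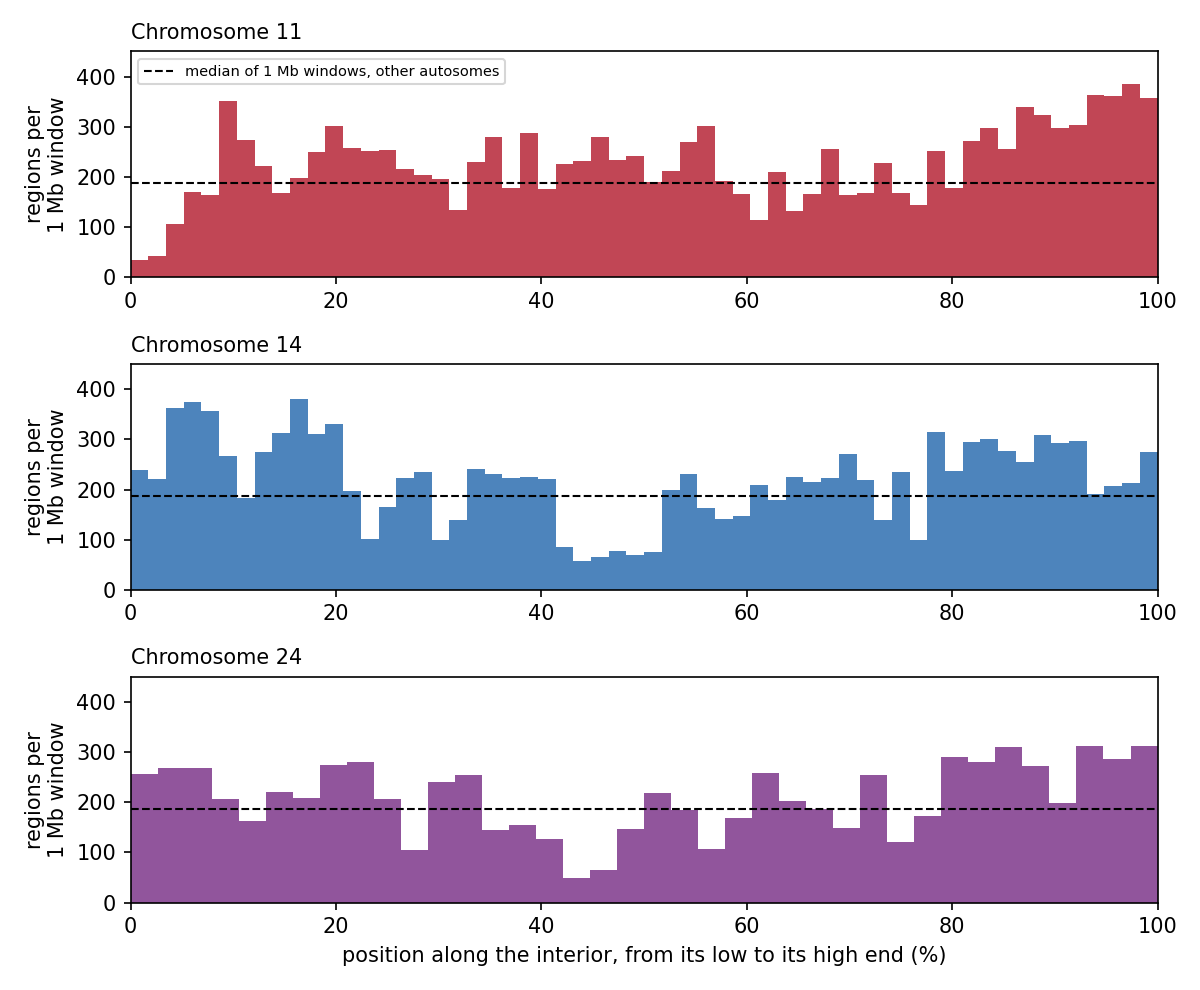
The number of consensus regions in each 1 Mb window is plotted along the interiors of chromosomes 11, 14 and 24, as percent of the interior from its low to its high end, with the median of 187 over windows of the other autosomes as a dashed line. Counts run from 34 to 386, and the middle of chromosomes 14 and 24 is sparse, with medians of 180 and 154 regions against 255 and 277 in the last stretch.

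Among consensus regions, peaks on these chromosomes were shared by slightly more fetuses. All 16 fetuses had a peak in 6501 regions, which is 19.02% of the regions against 15.81% elsewhere, and at least 8 fetuses had one in 54.02% against 51.60%. Regions with a peak in exactly 2 fetuses numbered 5273, or 15.43% against 16.35%. Chromosome 14 had the largest share of regions found in all fetuses among the 26 autosomes, 20.73%, followed by chromosome 11 with 18.53%, while chromosome 24 ranked 9 with 17.07%. By the other shares chromosome 24 went the opposite way, with 50.69% in at least 8 fetuses and 16.58% in exactly 2. Any pair of fetuses had between 47.42% and 69.55% of their combined regions on these chromosomes in common, with a median of 58.73%, against 56.43% on the other autosomes.

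The scores of peaks on these chromosomes were slightly lower. The score of a peak is −log10 of its deposited P-value, divided by a factor for each fetus that puts the fetuses on 1 scale, and a higher score is a more certain peak. The median scaled score over fetuses and regions was 1.598 on chromosomes 11, 14 and 24 against 1.645 elsewhere. Chromosome 24 had the lowest median of all autosomes, 1.541, and chromosomes 11 and 14 ranked 19 and 21 with 1.617 and 1.614. Among regions with a peak in all 16 fetuses the median width was 1860 bp against 1548 bp and the median score 2.209 against 2.413. Among regions of exactly 2 fetuses the widths were close (246 against 249 bp) and the score was again lower (1.210 against 1.281).

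These features were then compared within each fetus, so that every fetus served as its own control. Regions in which the fetus had a peak averaged 122.9 ± 17.12 per Mb (SD, n = 16) on the 3 chromosomes and 106.0 ± 20.34 on the other autosomes, a ratio of 1.170 as the mean over log2 ratios. The ratio was above 1 in 16 of 16 fetuses (exact sign-flip permutation test, two-sided, P = 3.052e-05, the smallest this test can give, adjusted P = 7.629e-05 over 5 measures). The share of bases under the fetus's own peaks was 9.935 ± 1.603% against 7.601 ± 1.342%, a ratio of 1.311, again higher in 16 of 16 (exact permutation test, adjusted P = 7.629e-05). Since the fetuses share 1 genome, these tests say that the fetuses resemble each other and not that the chromosomes are a sample of a kind.

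**Figure D3:**
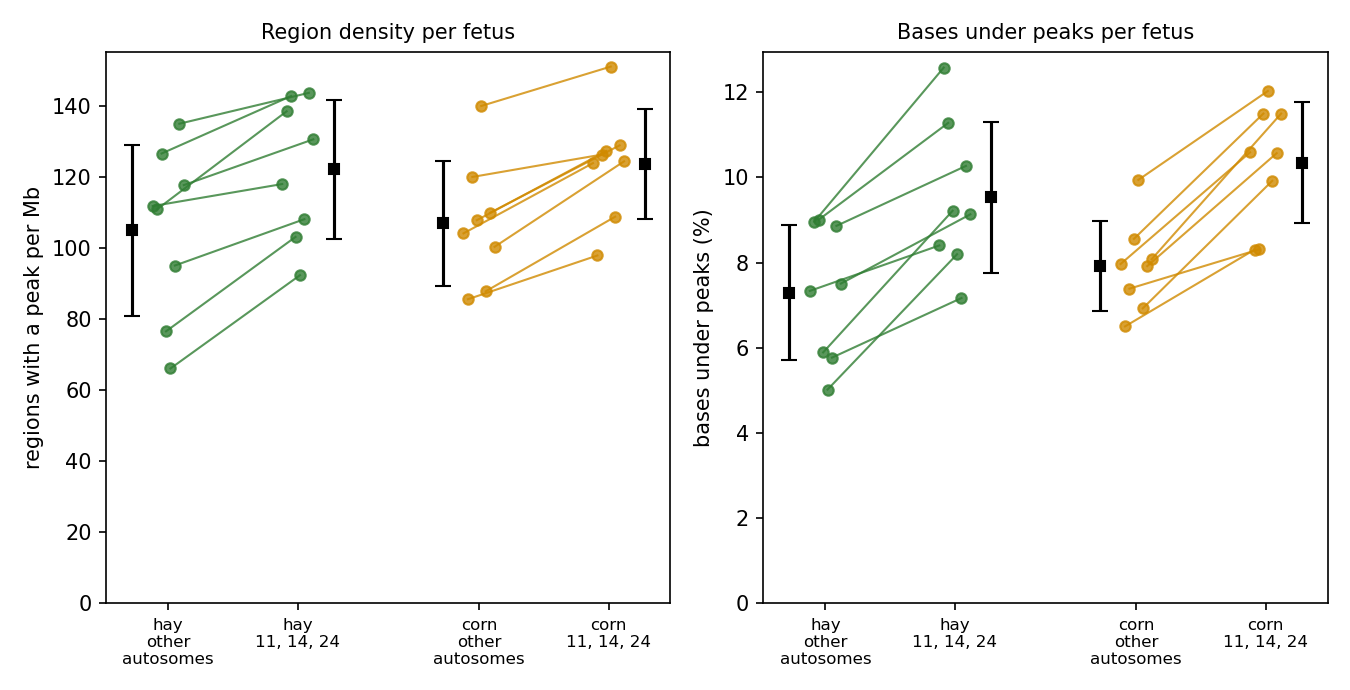
Regions with a peak per Mb (left) and the percent of bases under peaks (right) are plotted for each of the 16 fetuses on the other autosomes and on chromosomes 11, 14 and 24, with a line joining the values of 1 fetus and black squares with bars for the mean and SD of 8 fetuses. Every line goes up, in 16 of 16 fetuses for both measures, and the hay and corn fetuses overlap.

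The widths, scores and sharing of individual peaks differed by less. The median width of a fetus's own peaks was 341.5 ± 90.81 bp on the 3 chromosomes and 305.6 ± 58.56 bp elsewhere (ratio 1.102). It was larger in 13 fetuses, equal in 2 and smaller in 1 (exact sign-flip permutation test, adjusted P = 0.0004069). The 2 equal fetuses, corn fetus 4 and hay fetus 12, had medians of 250 bp on both sets of chromosomes. The median scaled score was 0.9710 times that of the other autosomes and was lower in 12 of 16 fetuses (exact sign-flip permutation test, P = 0.007294, adjusted P = 0.009117). A region in which a fetus had a peak was shared by 11.22 ± 0.8117 of the 15 other fetuses, against 10.95 ± 1.098, a difference of 0.2648 ± 0.3692 (SD, n = 16) that was positive in 12 of 16 (exact sign-flip permutation test, P = 0.01355, adjusted P = 0.01355). This sharing difference was lowest in hay fetuses 11 and 10, which had the fewest peaks, at -0.3648 and -0.2916. In hay fetus 15, which had the most peaks, it was 0.7431. A relation of sharing with peak number was not tested. The differences in density, coverage, score and sharing passed the test under every alternative tried. Against other autosomes 12 to 26 only, the log2 ratios were smaller for density (0.1728, from 0.2266) and coverage (0.3090, from 0.3909). The score ratio was also nearer to no difference (-0.03067, exact permutation test, adjusted P = 0.03073), while the sharing difference was 0.2697. With only peaks above the 25th percentile of the score, the log2 score ratio moved from -0.04244 to -0.01893 (exact permutation test, adjusted P = 0.01511), and the width difference did not pass (log2 ratio 0.07163, exact permutation test, adjusted P = 0.1252).

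Taken by chromosome, a split added after the data were seen, the density ratio was higher on chromosomes 11 and 14 than on chromosome 24. The ratio of regions per Mb was 1.224 on chromosome 11 and 1.190 on chromosome 14, above 1 in all 16 fetuses on both (exact sign-flip permutation test, adjusted P = 0.0001144 over 15 tests). On chromosome 24 it was 1.053, with 13 fetuses above 1 and 3 below (exact permutation test, adjusted P = 0.03960). Coverage ratios were 1.318, 1.388 and 1.175 on chromosomes 11, 14 and 24. The score ratio of chromosome 24, 0.9491, was below 1 in 13 of 16 fetuses (exact permutation test, adjusted P = 0.006561), that of chromosome 11 was 0.9750 (exact permutation test, adjusted P = 0.03960), and that of chromosome 14, 0.9782, did not pass (exact permutation test, adjusted P = 0.1733). Sharing passed on chromosome 14 only, with a difference of 0.4470 fetuses, higher in 14 of 16 (exact permutation test, adjusted P = 0.0005232). For chromosomes 11 and 24 the differences were 0.2702 (adjusted P = 0.05240) and -0.02724 (adjusted P = 0.7895), both by the exact permutation test. Whether the chromosomes differ from each other was not tested.

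The size of the density difference moved with the number of peaks called in a fetus. Hay fetus 11, with the fewest peaks (261331), had 92.41 regions per Mb on the 3 chromosomes and 66.12 elsewhere, a ratio of 1.398. Hay fetus 15, with the most (519923), had 143.8 and 135.1, a ratio of 1.064. Between these fetuses, the count on the 3 chromosomes was 1.556 times as high in fetus 15, that on the other autosomes 2.043 times, and the peak number 1.990 times. Hay fetus 10 had the next highest ratio, 1.347, and corn fetus 4 and hay fetus 3 had the lowest, 1.052 and 1.055. The fetuses with long peak lists were thus those in which the 3 chromosomes stood out least.

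Over the 16 fetuses the log2 density ratio was lower where more peaks were called, with Pearson's r = -0.8763 (permutation test with 100000 draws, P = 2.000e-05, adjusted P = 4.000e-05) and Spearman's rho = -0.8412 (permutation P = 0.0001200, adjusted P = 0.0002400). Without hay fetuses 11 and 15, those farthest from the median peak number, r was -0.8161, and within diets it was -0.9229 in hay and -0.8498 in corn. The relation with the median peak width of the fetus, the other relation examined, had r = 0.3935 (permutation P = 0.1305, adjusted P = 0.1305) and rho = 0.6450 (permutation P = 0.008490, adjusted P = 0.008490), and r was 0.3353 without corn fetuses 9 and 14, 0.5317 within hay and 0.7335 within corn. Both relations were examined after the data were seen. The peaks of the other autosomes enter both the ratio and the total, which couples these quantities, and the part of sequencing depth was not tested because read depth is unknown.

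**Figure D4:**
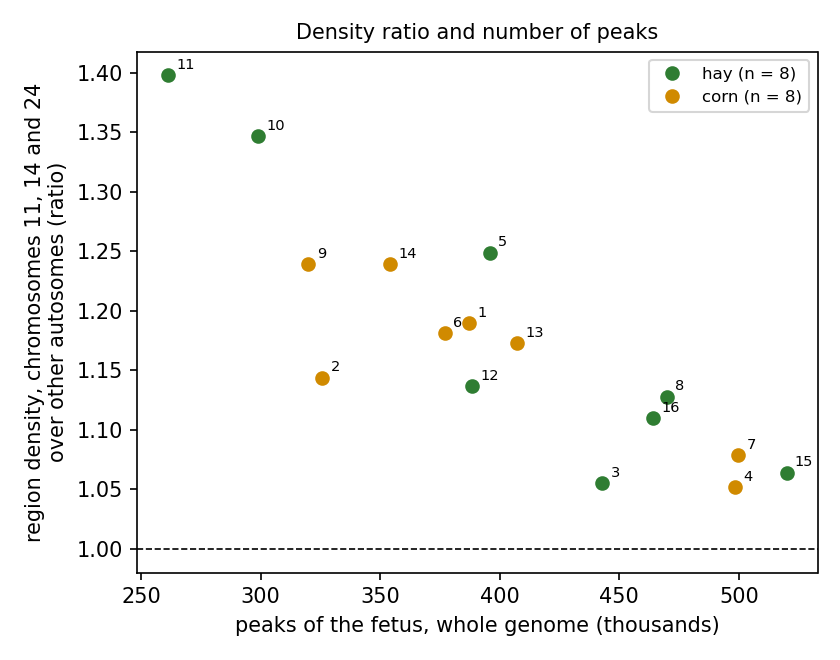
The ratio of regions per Mb on chromosomes 11, 14 and 24 to that on the other autosomes is plotted against the number of peaks of the fetus, 1 numbered point per fetus, with a dashed line at 1 and axes that do not start at 0. The ratio is 1.398 in hay fetus 11, which has 261331 peaks, and 1.064 in hay fetus 15, which has 519923, and it is above 1 in all 16.

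The second question was whether maternal diet changed methylation on these chromosomes. No difference between fetal LD muscle from hay-fed and corn-fed ewes passed the test for density, width or score. Regions per Mb were 122.2 ± 19.64 (SD, n = 8) in hay, with a lowest, median and highest value of 92.41, 124.4 and 143.8, and 123.7 ± 15.52 (SD, n = 8) in corn, with 97.97, 125.4 and 151.2. The ranges overlapped almost wholly (difference -1.429, exact permutation test over 12870 assignments, two-sided, P = 0.8720, adjusted P = 0.8720 over 3 measures). Median peak width was 306.1 ± 57.16 bp in hay and 376.9 ± 107.4 bp in corn, with ranges of 250 to 404 and 250 to 556 bp (exact permutation test, P = 0.1253, adjusted P = 0.3289, n = 8 per diet). The 3 largest medians were those of corn fetuses 14, 9 and 6, at 556, 486 and 455 bp. The smallest, 250 bp in hay fetus 12 and corn fetus 4, equalled the fragment length that the study set for peak calling.

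The median scaled score was 1.499 ± 0.1556 for hay against 1.399 ± 0.1586 for corn (exact permutation test, two-sided, P = 0.2193, adjusted P = 0.3289, n = 8 per diet). Without scaling, the difference, hay minus corn, was -0.1297 (exact permutation test, P = 0.02300, adjusted P = 0.06900). Bases under peaks averaged 9.530 ± 1.765% in hay and 10.34 ± 1.420% in corn, and each region was shared by 11.15 ± 0.8968 and 11.29 ± 0.7717 other fetuses, values given without a test. Pairs of corn fetuses had a median of 62.45% of their combined regions in common, pairs of hay fetuses 56.13% and mixed pairs 58.62%. On the other autosomes the order was the same, with 60.24%, 52.79% and 56.07%.

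For the contrast with the other autosomes, too, no difference between diets passed after adjustment. The mean log2 density ratio was 0.2387 ± 0.1541 for hay against 0.2146 ± 0.08582 for corn (exact permutation test, P = 0.7013, adjusted P = 0.7013, n = 8 per diet). For width it was 0.1219 against 0.1573 (exact permutation test, P = 0.5823, adjusted P = 0.7013). For score it was -0.06746 ± 0.03923 in hay and -0.01742 ± 0.05358 in corn, a difference of -0.05004 that had the smallest P of the 3 and did not pass after adjustment (exact permutation test, P = 0.04522, adjusted P = 0.1357). With only peaks above the 25th percentile of the score this difference was -0.003088 (exact permutation test, adjusted P = 0.8112). Of the 8 hay fetuses 7 had a lower score on the 3 chromosomes than elsewhere, and of the 8 corn fetuses 5 did. When each chromosome was compared between diets, which was added after the data were seen, the smallest adjusted P of the exact permutation tests was 0.5450.

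Single regions were compared between diets on log2(scaled score + 1), where a fetus without a peak has 0. Absence of a peak can reflect few reads as well as little methylation, and the peak lists do not separate these. None of the 34176 regions had an adjusted P under 0.1 in limma, against 3 of 512238, or 0.000586%, in the genome, and the smallest adjusted P was 0.7416. At an unadjusted P under 0.05 there were 846 regions, or 2.48%, where the percentage over all regions was 3.16%. Of these, 405 were higher in hay (1.19%, against 1.43% in the genome) and 441 were higher in corn (1.29%, against 1.73%). The shares on these chromosomes were thus no higher than the background in either direction. Without scaling, the share was 4.377% against 5.677% in the genome and the counts were 235 higher in hay and 1261 higher in corn, so the balance between diets rests on the scaling. The median log2 difference was 0.01104 on the 3 chromosomes and 0.01570 over all regions.

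By chromosome, 352 regions (2.65%) had an unadjusted P under 0.05 on chromosome 11, 321 (2.48%) on chromosome 14 and 173 (2.18%) on chromosome 24, all below the 3.16% over all regions. Those higher in hay numbered 147, 168 and 90, at most 1.30% of the regions of a chromosome, and those higher in corn 205, 153 and 83, at most 1.54%, each below the genome value for its direction. Peaks present in 1 diet and nearly absent in the other were rare. Only 1 region, on chromosome 24, had a peak in at least 7 hay fetuses and at most 1 corn fetus, against a background of 0.00351%, and 9 regions, 4 on chromosome 11 and 5 on chromosome 14, had the reverse, against 0.0332%. As shares of the 34176 regions these were 0.00293% and 0.0263%, close to the genome values, and 1 and 9 regions are too few to be read as a deficit. The region on chromosome 24 lies from 9822020 to 9822579 (7 hay and 1 corn fetuses). These presence counts were added after the data were seen.

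The regions with the smallest P are described with their values, since none passed the adjustment and they were picked for their difference. The smallest lay on chromosome 14 from 59719877 to 59721537 (1661 bp). The 8 hay fetuses had log2 scores of 3.001, 3.514, 3.054, 3.109, 1.849, 2.083, 3.002 and 2.930 in fetuses 3, 5, 8, 10, 11, 12, 15 and 16. The 8 corn fetuses had 1.519, 1.914, 2.534, 2.998, 1.406, 3.146, 1.639 and 1.958 in fetuses 1, 2, 4, 6, 7, 9, 13 and 14. Most hay fetuses were near 3 and most corn fetuses near or under 2, but hay fetuses 11 and 12 lay among the corn fetuses and corn fetuses 6 and 9 among the hay fetuses. The mean difference was 0.68 with a limma SE of 0.1553, and the exact permutation test gave P = 0.04895 beside the limma P = 3.133e-05 (adjusted P = 0.7416). The limma SE borrows its variance from regions of like score, and the SE from these 16 values alone was 0.3090.

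The call at this region depended on single fetuses. It reached an adjusted P under 0.1 in limma when corn fetus 4 (0.08190), corn fetus 6 (0.05001), corn fetus 9 (0.07511), hay fetus 12 (0.07528) or hay fetus 11 (0.009760) was left out. A neighbouring region from 59710598 to 59715948 (5351 bp) was also higher in hay, with 2.796 ± 0.5212 against 2.309 ± 0.2387 (SD, n = 8 each, exact permutation test, P = 0.03434). There, 6 hay fetuses lay above all corn fetuses while hay fetuses 11 and 12, at 2.048 and 1.999, were again low. Within 50 kb on either side of the first region, a span chosen after its values were seen, there were 20 regions including these, of which 12 had a higher mean in hay, where the share over all regions of the genome was 53.93%. At a limma P under 0.05, 4 were higher in hay, among them both regions just described, and 1 was higher in corn, where the percentages over all regions were 1.43% and 1.73%. Both regions just described were picked for a small P, so these counts cannot be read as an excess over those percentages. The other hay regions had peaks in only 4 and 6 hay fetuses and in no corn fetus.

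The other regions of chromosome 14 with the smallest P had log2 differences of 0.79, in hay (49491007 to 49492131), and of -0.59 (33870030 to 33871233), -0.49 (57853164 to 57855478) and -0.88 (58932513 to 58933703), in which corn was higher. At 33870030 all 16 fetuses had a peak, 4 corn fetuses lay above every hay fetus, and the means were 1.698 ± 0.3559 for hay against 2.286 ± 0.4082 for corn (SD, n = 8 each, exact permutation test, P = 0.01026). At 58932513 the difference came with missing peaks: all 8 corn fetuses had a peak with scores from 1.352 to 2.061, whereas hay fetuses 3, 12, 15 and 16 had none.

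On chromosome 11, 4 of the 6 regions with the smallest P had a peak in every fetus of 1 diet and lacked one in some fetuses of the other. At 12462425 to 12463224 (800 bp), all 8 corn fetuses had a peak, with log2 scores from 0.8063 to 1.561, and of the hay fetuses only fetus 5 did, at 0.8543 (difference -1.12, limma P = 0.001503, adjusted P = 0.9190, exact permutation P = 0.0003108). The region from 6659108 to 6659984 had the opposite arrangement, with peaks in 8 hay fetuses (1.126 to 1.513) and in corn fetuses 1 and 7 (1.425 and 1.503). Where corn fetuses had a peak there, they were as high as the hay fetuses, so the difference of 0.97 came from the 6 corn fetuses without a peak. At 15287603 to 15288850 the difference was 0.72, with 8 hay and 5 corn fetuses having a peak, and at 14308392 to 14309401 it was -0.78, with 4 and 8.

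Broader regions of chromosome 11 that every fetus had were 54713792 to 54725662, 11871 bp long, and 37046387 to 37048262. The first had 3.395 ± 0.7068 in hay and 2.968 ± 0.3897 in corn (SD, n = 8 each), with hay fetus 12 highest at 4.731, and the ranges overlapped (exact permutation test, P = 0.1596). The second had 2.295 ± 0.2929 in hay and 2.693 ± 0.3927 in corn, with 5 corn fetuses above every hay fetus (exact permutation test, P = 0.04009, n = 8 per diet).

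Chromosome 24 held both kinds of region, those with missing peaks in 1 diet and those with a peak in every fetus. At 11559274 to 11560151 all hay fetuses had a peak (0.9821 to 1.604) and corn fetuses 2, 6 and 13 did (1.385, 0.8852 and 1.146), a difference of 0.90 (limma P = 0.004084, adjusted P = 0.9190, exact permutation P = 0.002953). At 8234600 to 8235880 the counts were 8 hay and 4 corn (difference 0.77). At 21157106 to 21157934 all corn fetuses had a peak (1.075 to 1.484) and hay fetuses 5 and 11 did (0.8872 and 1.505), a difference of -1.03 (limma P = 0.001691, adjusted P = 0.9190, exact permutation P = 0.001709). The differences at 25874731 to 25875781 and 32417949 to 32418938 were -0.74 and -0.67, with peaks in 5 and 6 hay fetuses and in all corn fetuses. At 27898006 to 27899208 all 16 fetuses had a peak, and hay averaged 2.079 ± 0.6298 against 1.579 ± 0.4988 in corn (SD, n = 8 each, exact permutation test, P = 0.1007), with corn fetus 4, at 2.736, above all other corn fetuses.

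**Figure D5:**
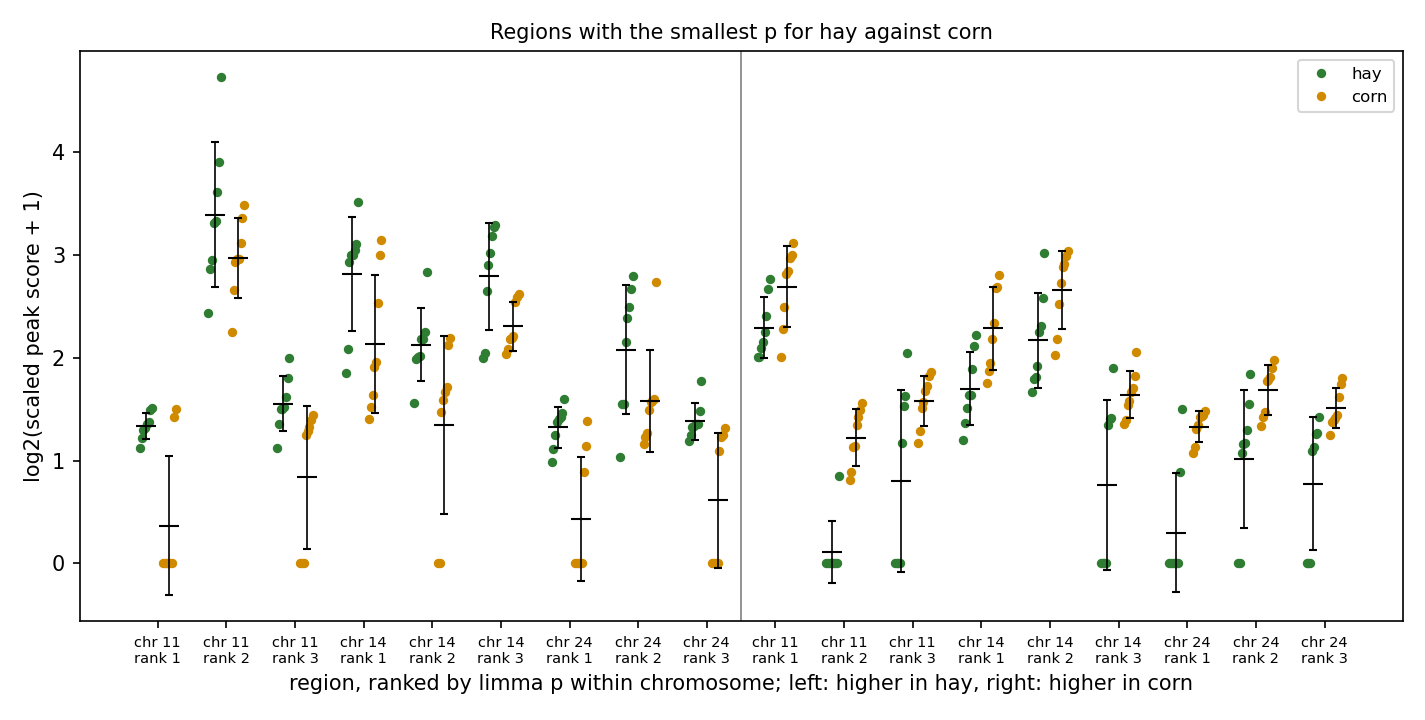
The log2(scaled score + 1) of each fetus is plotted for the 3 regions per chromosome with the smallest limma P in each direction, higher in hay on the left and higher in corn on the right, with 0 where a fetus had no peak and bars for the mean and SD of 8 fetuses. The first chromosome 14 region on the left, which starts at 59719877, has hay values from 1.849 to 3.514 and corn values from 1.406 to 3.146, and several other regions differ through fetuses at 0.

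At the strongest region of each chromosome the values of the diets overlapped. On chromosome 11 the region from 58261266 to 58262420, which lies in the densest window of that chromosome, had a deposited P-value of 0 in all 16 fetuses. Its score is thus at the ceiling of 100 before scaling in every fetus, so that the log2 scores of 6.767 ± 0.2267 in hay and 6.541 ± 0.2496 in corn differ through the scaling factors alone. On chromosome 14 the strongest region, 12151178 to 12157607 (6430 bp), averaged 5.549 ± 0.6472 for hay against 5.223 ± 0.5852 for corn (SD, n = 8 each, exact permutation test, P = 0.3145). On chromosome 24 the region from 9697615 to 9699146 ranged from 3.805 to 6.654 over the hay fetuses and from 3.491 to 7.011 over the corn fetuses, and its deposited P-value was 0 in 1 hay and 5 corn fetuses (exact permutation test, P = 0.3021, n = 8 per diet). Across the 34176 regions, 23 peaks in these 3 regions had a deposited P-value of 0.

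The study lists 2 differentially methylated regions on these chromosomes, and both coincide with a merged region at start and end. They were listed from the same fetuses, so their values are a description only. At 5783217 to 5783701 on chromosome 11, an intergenic position that the study assigns to PCTP, which encodes a phosphatidylcholine transfer protein, hay fetuses 10, 11 and 16 had a peak with log2 scores of 1.933, 1.486 and 1.351, and the other 13 fetuses had none. At 6435249 to 6435651 on chromosome 14, hay fetuses 5, 10, 11, 15 and 16 had a peak with scores from 1.042 to 1.565, and none of the 8 corn fetuses did. Their widths were 485 and 403 bp. The median width was 246 bp for regions of exactly 2 fetuses and 1860 bp for regions common to all fetuses. A joined region can only widen as more fetuses add peaks, so widths at unlike numbers of fetuses are not directly comparable.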

How the data were processed

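MBD-enriched DNA of 16 fetal LD samples was sequenced by the authors. Per the labels and the study's methods, Trimmomatic 0.33 was used for trimming, BWA 0.7.15 for alignment to Oar_v3.1, Picard 1.107 for duplicate removal and ChIPseeqer for peak calling in each fetus separately. The deposited lists give chromosome, start, end and 1 value per peak, read here as its p-value because the 6410742 values lie between 0 and 0.1352, with 0 at 1315 peaks. Positions were taken as 1-based. No reads or depths are in these lists, so depth is unknown and no interval that needs it was computed. No column of sample values was set aside.

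P-values of 0 were set to 1e-100, and the score was −log10 of the p-value. The highest score per fetus and region was scaled by a factor between 0.7647 and 1.383, set from median ratios at the 88488 regions that all fetuses shared, and taken as log2(score + 1). The chromosome end was the largest peak end. Fetuses were grouped by the diet in their labels. Single values were tested with exact permutation tests and regions with limma 3.58.1 in R 4.3.3 (lmFit, eBayes with trend, Benjamini-Hochberg over all 512238 regions, threshold 0.1), after it was tested on simulated data. Other steps ran in Python 3.11.15 (pandas 2.3.3, scipy 1.17.1, numpy 2.4.6). The study obtained its differential regions from aligned reads, which were not used here. Regions named are, per chromosome, the strongest, the widest, the 3 with the smallest limma P in each direction, those the study lists, and the windows with most and fewest regions. The region present in 7 hay fetuses and 1 corn fetus was named after its values were seen. The exact permutation P of single regions was added after the data were seen. Members, chromosomes and lists were chosen with earlier results of these data known. Alternatives covered the peak threshold, overlap, minimum number of fetuses, ends, comparison chromosomes, scaling, pseudocount, presence alone, peak number as a covariate, and each fetus left out.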

Additional observations from a re-analysis of the deposited data

Results flagged for a closer look

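Of 72 groups of 8 fetuses examined, 2 held a fetus far from the others, where chance gives about 1 in 20. At the chromosome 11 region starting at 12462425, hay fetus 5 had a log2 score of 0.8543 and the 7 other hay fetuses were at 0. A single fetus with a peak among fetuses at 0 always stands apart, so the rate of 1 in 20 does not apply to that group. At the chromosome 24 region starting at 27898006, corn fetus 4 had 2.736 and the next corn fetus 1.603. The contrast in score between chromosomes 11, 14 and 24 and the other autosomes differed between diets by -0.05004 (log2, hay minus corn) at an unadjusted P of 0.04522 in the exact permutation test, and the adjusted P was 0.1357. With only peaks above the 25th percentile of the score it was -0.003088 (exact permutation test, adjusted P = 0.8112).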

How the results depend on the processing

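Of 278 values of 13 results recomputed under alternatives, 257 kept their direction and their side of the threshold or stayed within 1.5 times the count. With only peaks above the 25th percentile of the score, the log2 width ratio to the other autosomes was 0.07163 (adjusted P = 0.1252), and the diet differences of the density ratio and width ratio changed sign to -0.05326 and 0.1523. Under the same threshold the log2 score ratio to the other autosomes was -0.01893 (adjusted P = 0.01511), and the diet differences, none of which passed, were -9.044 in density, -41.38 bp in width, 0.1793 in score and -0.003088 in the score ratio. With no ends left out, the diet difference of the width ratio was 0.01028. Without scaling, the diet difference in score was -0.1297, 2 regions had an adjusted P under 0.1, against 46 in the genome, and 1496 (4.377%, against 5.677% of all regions) an unadjusted P under 0.05. With the peak number as a covariate the last count was 1334 (3.903%, against 4.987%). Leaving out each fetus moved the diet difference in density from -5.129 to 2.804, with a change of sign without corn fetus 7 and without hay fetuses 10, 11 and 12. It moved that of the density ratio from -0.01110 to 0.04706, with a change of sign without hay fetuses 10 and 11, and that of the score ratio from -0.06091 to -0.03405, which passed the test without hay fetus 3 (exact permutation test, adjusted P = 0.02844). The number of regions with an adjusted P under 0.1 ranged from 0 to 5, with 5, of 52 in the genome, without hay fetus 11 and 1 each without corn fetuses 4, 6 and 9 and hay fetus 12. The number with an unadjusted P under 0.05 ranged from 684 to 1344, the highest without hay fetus 11 (3.940%, against 5.308% of all regions). The 5 contrasts with the other autosomes passed the test in all 16 fits that left out a fetus. The causes of these changes were not tested. No paired analysis was possible because the fetuses of the 2 diets came from different ewes. Twins within a diet could not be matched to their dams. Depth is unknown, so a region without a peak may be methylated but thinly covered.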

Other observations

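The other 8 regions with a peak in at least 7 corn fetuses and at most 1 hay fetus, beside that at 12462425 on chromosome 11, each had 7 corn fetuses and 1 hay fetus. On chromosome 11 they lie from 6682323 to 6683121, from 10677214 to 10677892 and from 17501348 to 17502110. On chromosome 14 they lie from 11107518 to 11107994, from 28973617 to 28974412, from 32396959 to 32397719, from 47339580 to 47340305 and from 60672906 to 60673429. They were picked for this arrangement after it was seen, their log2 differences (hay minus corn) ran from -0.92 to -0.79, and the adjusted limma P was 0.9190 at each.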
